A study of Mus musculus with 4 samples.

Results

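The matrix metalloproteinases (MMPs), the ADAMTS proteases and 3 of their tissue inhibitors (TIMPs) were followed in mouse back skin by RNA-seq. Genes were taken by symbol (Mmp or Adamts followed by a number, with Timp2, Timp3 and Timp4) and kept with 10 or more counts in at least 1 library. This left 36 of 45 genes with such symbols, among 20611 genes in the tables: 16 of 23 MMPs, 17 of 19 ADAMTS genes and 3 of 3 TIMPs. At the edge of the cut, Adamts8 was kept with a highest count of 13 and Mmp16 was dropped with a highest count of 9. Mmp1a, Mmp7 and Mmp20 had 0 counts in every library, and the other 6 genes dropped, Adamts3, Adamts19, Mmp1b, Mmp16, Mmp21 and Mmp24, had at most 9.

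All mice were male BALB/c, 8 to 9 weeks old, and all had a 5% cream of imiquimod (IMQ) put on the back from day 1 to day 5, 47 mg daily. Imiquimod is a Toll-like receptor agonist whose cream is used to produce a psoriasis-like inflammation of mouse skin. The IMQ+IDMF group (1 library) also received the IDMF lotion about 1 h after the cream, the IMQ+VEH group (2 libraries) a vehicle lotion, and the IMQ group (1 library) the cream only. Skin was collected on day 6, and no skin without imiquimod was analysed here.

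MMPs are zinc-dependent proteases, made as inactive precursors, that cut collagens, other matrix proteins and many soluble proteins. ADAMTS proteases are secreted relatives that carry thrombospondin repeats; some cut proteoglycans, some trim procollagens and one cuts von Willebrand factor. TIMPs bind and block the active site of these enzymes. In skin, fibroblasts, keratinocytes and infiltrating leukocytes all make members of these families, and their activity rises in wounds and in inflamed skin.

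The total was 21991604 counts in the IMQ+IDMF library, 26639628 and 21167149 in the vehicle libraries (replicates 1 and 2) and 26337985 in IMQ. As a check of the tissue, 9 markers of suprabasal and activated keratinocytes were summed, with Krt1 and Krt10 making up most of the total. The sum was 49500 counts per 1e6 (CPM) in IMQ+IDMF, 44500 and 56200 in IMQ+VEH and 59800 in IMQ. It does not describe the lower members. Krt6a had 978 CPM in IMQ+IDMF, 1230 and 908 in IMQ+VEH and 3930 in IMQ. Krt16 had 2830 CPM in IMQ+IDMF, 2930 and 2820 in IMQ+VEH and 5990 in IMQ. Krt17 was not highest in IMQ, with 1930 CPM in IMQ+IDMF, 1520 and 1830 in IMQ+VEH and 1620 in IMQ. None of these keratins passed the test used below. CPM were scaled with TMM factors, and 3 counts, taken as the detection floor, correspond to 0.134, 0.107, 0.146 and 0.118 CPM in that order. The 36 genes took 0.1% of all counts in IMQ+IDMF, 0.141% and 0.139% in the IMQ+VEH libraries and 0.0885% in IMQ. In bulk skin, fewer cells of a type and less RNA per cell cannot be told apart. Only the IMQ+VEH group had a replicate, and nothing in the labels says whether its libraries came from different mice, so every p-value below measures the spread between those 2 libraries, borrowed by the model for the single libraries. The comparisons of IMQ+IDMF with IMQ+VEH and of IMQ+VEH with IMQ share the IMQ+VEH libraries. IMQ+IDMF and IMQ, with 1 library each, were compared by fold only. Exons of 10 of the kept genes overlap another gene (Adamts4, Adamts7, Adamts8, Adamts9, Mmp11, Mmp12, Mmp19, Mmp28, Timp3 and Timp4), and no source used here says whether the counting used strand, so their counts may hold reads of the neighbour.

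Across the 4 libraries the highest level per transcript length, as the deposited FPKM, belonged to Adamts13, with a mean of 76.2 FPKM and a range of 47.5 to 131. Timp2 followed with a mean of 48.4 FPKM (27.9 to 76.4) and Mmp2 with 41.7 FPKM (24 to 60.1), and the ranges of these 3 genes overlapped. Mmp14 averaged 17.9 FPKM, Timp3 15.5, Mmp3 12.1, Timp4 8.63, Adamts1 7.56 and Adamts2 5.66 FPKM. Mmp23, Mmp28, Adamts5, Mmp15 and Adamts10 lay between 4.89 and 2.14 FPKM on average, and Mmp11, Mmp9, Mmp19, Mmp27, Adamts14 and Adamts9 between 1.86 and 1.00. The remaining 16 genes averaged under 1 FPKM, down to 0.0350 for Adamts16. The collagenases Mmp13 and Mmp8 and the neutrophil protease Mmp25 were among these 16.

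**Figure D1:**
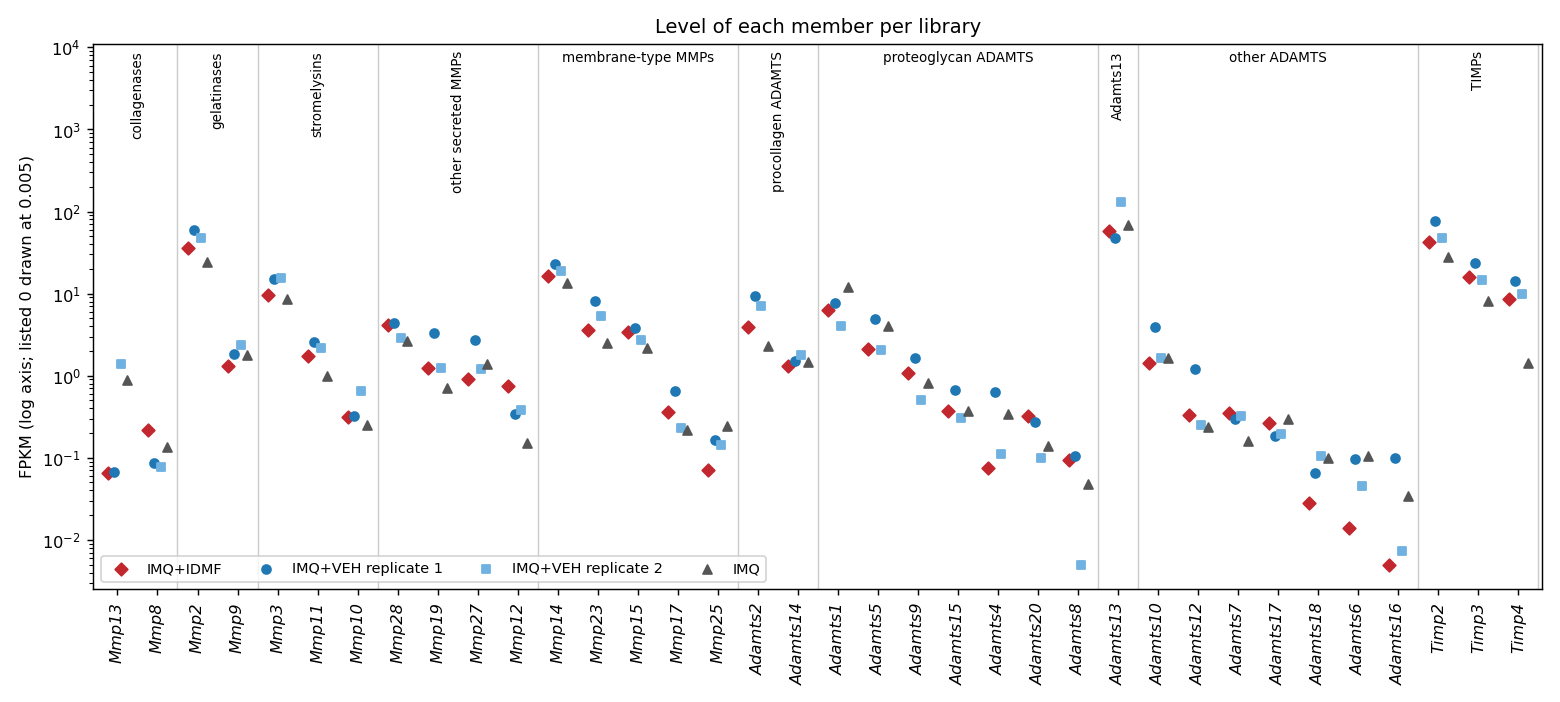
Level of the 36 kept genes as deposited FPKM (log axis) in each of the 4 libraries, grouped by role. A listed 0 is drawn at 0.005. Adamts13, Timp2 and Mmp2 lie highest, the IMQ+VEH libraries lie far apart for Mmp13, and Timp4 in IMQ lies below its other 3 libraries.

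With vehicle lotion on top of imiquimod, 2 of the 36 genes were higher than with imiquimod only, Timp4 and Adamts2, by edgeR's quasi-likelihood test with Benjamini-Hochberg adjustment over 15068 genes. No member passed in the downward direction. Over all genes the same test called 0.338% higher and 0.325% lower in IMQ+VEH. Counting libraries in place of testing, 17 of the 36 genes (47.2%) were above IMQ in both IMQ+VEH libraries, against 33.5% of all genes, and 5 (13.9%) lay below it in both, against 35.0% of all genes. The 17 comprised 11 of 16 MMPs, 3 of 17 ADAMTS genes and 3 of 3 TIMPs. The median log2 fold change over the members was 0.51, against 0.00 over all genes, with 28 values above 0 and 8 below. The median log2 CPM difference, taken without a fit, was 0.15 for IMQ+VEH replicate 2 and 0.70 for replicate 1 against IMQ.

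IMQ+IDMF lay on the same side as the vehicle libraries in most of these genes. All 17 genes above IMQ in both IMQ+VEH libraries were also above IMQ in IMQ+IDMF, that is, 47.2% of members against 28.9% of all genes in the 3 lotion-treated libraries. Of the 5 below, Adamts1, Adamts6, Adamts17 and Mmp25 were also below IMQ in IMQ+IDMF (11.1% of members, against 30.1% of all genes), whereas Mmp8 was above it. Directly between IMQ+IDMF and IMQ, on the log2 CPM scale with a prior count of 2, 4 members were at least 2-fold higher (Timp4, Mmp12, Adamts7 and Adamts20; 6.78% of all genes were) and 8 were at least 2-fold lower (Mmp13, Mmp25, Adamts1, Adamts4, Adamts5, Adamts6, Adamts16 and Adamts18; 4.51% of all genes were). The median log2 CPM difference of the members between IMQ+IDMF and IMQ was 0.28.

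Between IMQ+IDMF and IMQ+VEH, no member passed the adjusted threshold: edgeR called 0.0% of the 15068 genes, DESeq2 also none, and every member's edgeR adjusted p was 1. At an unadjusted p under 0.05 edgeR listed 306 genes (2.03%), of which Adamts2 and Mmp13 are members, and DESeq2 listed 182 genes. By position, 17 of 36 members (47.2%) were below both IMQ+VEH libraries in IMQ+IDMF, against 27.5% of all genes, and 6 (16.7%) were above both, against 27.7% of all genes. The 17 comprised 8 of 16 MMPs, 7 of 17 ADAMTS genes and 2 of 3 TIMPs. The median log2 fold change was -0.53 over the members and -0.01 over all genes, with 10 values above 0 and 26 below. The median log2 CPM difference of IMQ+IDMF was -0.22 against IMQ+VEH replicate 2 and -0.52 against replicate 1. The vehicle libraries themselves differed by a median of -0.45 log2 CPM over the members (replicate 2 minus replicate 1).

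Marker lists of other cell types were summed beside these counts. The summed level of 12 fibroblast markers was 855 CPM in IMQ+IDMF, 1920 and 1150 CPM in the IMQ+VEH libraries and 762 CPM in IMQ; 8 of the 12 were lower with IDMF than with vehicle in either library, and none was at 0. For 10 monocyte and macrophage markers the sum was 370 CPM in IMQ+IDMF, 977 and 550 CPM in IMQ+VEH and 656 CPM in IMQ, and all 10 were lowest in IMQ+IDMF of the 3 lotion libraries. For 8 adipocyte markers the sum was 2610 CPM in IMQ+IDMF, 3510 and 2420 CPM in IMQ+VEH and 778 CPM in IMQ, with all 8 higher in every lotion library than in IMQ and none at 0. Adipoq, Plin1, Cidec and Pparg passed the edgeR test as higher in IMQ+VEH than in IMQ, and Lep, Fabp4, Lipe and Cfd did not. The 9 neutrophil markers in the tables summed to 1750 CPM in IMQ+IDMF, 4520 and 2190 CPM in IMQ+VEH and 8710 CPM in IMQ; Retnlg, Ngp and Ltf were at 0 in at least 1 library. That sum was carried by S100a8 and S100a9, which inflamed keratinocytes also make, with 3600 and 5040 CPM in IMQ. Of the 6 neutrophil markers tested, 2 were below and 2 above IMQ in all 3 lotion libraries, with Camp and Mpo above. Camp had 6 counts in IMQ+IDMF, 7 and 16 in IMQ+VEH and 1 in IMQ, which is under the floor. Mpo had 29 counts in IMQ+IDMF, 35 and 87 in IMQ+VEH and 7 in IMQ. For 12 hair follicle markers the sum was 37.9 CPM in IMQ+IDMF, 15.1 and 17.9 CPM in IMQ+VEH and 104 CPM in IMQ, with Krt35 and Krt85 at 0 in at least 1 vehicle library; all 12 were lower in both vehicle libraries than in IMQ, and 5 passed the edgeR test as lower. For 8 smooth muscle markers the sum was 1540 CPM in IMQ+IDMF, 1390 and 1280 CPM in IMQ+VEH and 906 CPM in IMQ, and all 8 were higher in every lotion library than in IMQ, with none passing. Des made up most of each sum, with 1280 CPM in IMQ+IDMF, 1100 and 1150 CPM in IMQ+VEH and 835 CPM in IMQ. The sum therefore says little about the other smooth muscle markers. Over all genes, 27.5% were below both IMQ+VEH libraries in IMQ+IDMF. In all 3 lotion libraries 28.9% of all genes were above IMQ and 30.1% below it. In both vehicle libraries 35.0% of all genes were below IMQ. The edgeR test called 0.338% of all genes higher and 0.325% lower in IMQ+VEH than in IMQ. The part of these cell types in the values of the proteases and inhibitors was not tested.

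**Figure D2:**
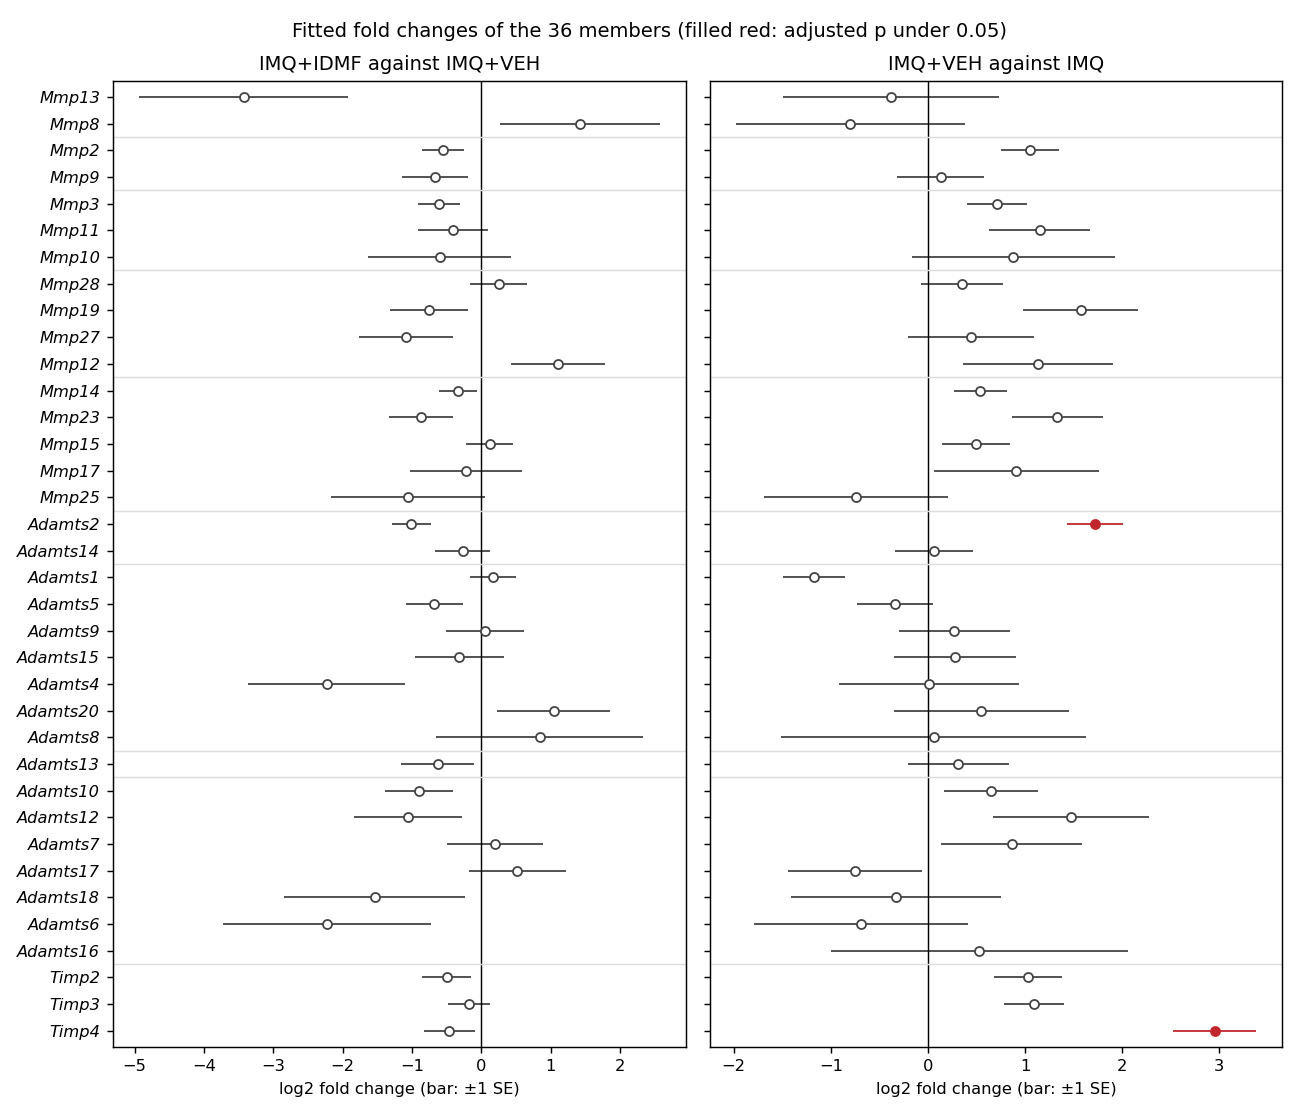
Log2 fold change of each kept gene with 1 SE either side, IMQ+IDMF against IMQ+VEH (Adamts16, at 0 counts in IMQ+IDMF, is omitted) and IMQ+VEH against IMQ, from edgeR. Red marks an adjusted p under 0.05, which only Timp4 and Adamts2 reached, both in IMQ+VEH against IMQ.

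The interstitial collagenases, which make the first cut in fibrillar collagen, were near the floor of 3 counts in some libraries. Mmp13, the main interstitial collagenase of rodents (chr9:7272514-7283331, + strand, GRCm38), had 5 counts (0.224 CPM) in IMQ+IDMF, 6 and 98 counts (0.214 and 4.78 CPM) in IMQ+VEH replicates 1 and 2, and 81 counts (3.19 CPM) in IMQ. One vehicle library therefore sat with IMQ+IDMF and the other with IMQ. The ratio of IMQ+VEH replicate 2 to replicate 1 was 22.3, with a 95% exact counting interval of 9.91 to 62.4, and this log2 CPM difference, 4.03 with a prior count of 2, was the largest in size among the 36 genes. Mmp13 in IMQ+IDMF was 0.0468 times the level in IMQ+VEH replicate 2 (0.0149 to 0.113), 1.05 times that in replicate 1 (0.252 to 4.11) and 0.0701 times that in IMQ (0.0222 to 0.17). The fitted log2 fold change of IMQ+IDMF against IMQ+VEH was -3.43 (SE 1.51, unadjusted p = 0.0422, adjusted p = 1), and the log2 CPM difference of IMQ+IDMF with a prior count of 2 was -3.99 to replicate 2 and 0.05 to replicate 1. These intervals, like all counting intervals given here, cover counting error only.

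Mmp8, the collagenase stored in neutrophil granules, had 15 counts in IMQ+IDMF, 7 and 5 in IMQ+VEH and 11 in IMQ. IMQ+IDMF was above both vehicle libraries and above IMQ, at 2.69 times IMQ+VEH replicate 1 (1.03 to 7.79), 2.75 times replicate 2 (0.95 to 9.67) and 1.55 times IMQ (0.664 to 3.73). The intervals against replicate 2 and against IMQ include 1. The adjusted p was 1 for IMQ+IDMF against IMQ+VEH. The other interstitial collagenases, Mmp1a and Mmp1b, the rodent relatives of human MMP1, had 0 counts in every library and 1 to 6 counts, so neither could be compared at this depth.

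Mmp13 and Mmp8 lie in a cluster of 10 Mmp genes on chromosome 9, 427.1 kb from the start of Mmp13 to the end of Mmp7 (chr9:7272514-7699585, GRCm38), of which 6 were kept: Mmp13, Mmp12, Mmp3, Mmp10, Mmp8 and Mmp27. Their upstream sequences are shown as a description, because the 6 kept genes differ in a known binding motif. The AP-1 motif TGAGTCA, read on both strands (TGACTCA on the other), was searched in the 250 bases before each start in the RefSeq promoter table (GRCm38.p6), along with the TATA motif TATAAA and the GC box GGGCGG, also on both strands. AP-1 is the Fos and Jun dimer through which many inflammatory signals act. The table held promoters for 31 of the 45 genes and 24 of the 36 kept. With a gene counted where any of its starts held the motif, TGAGTCA was present for 7 of these 31 genes (7 of 34 promoters), all 7 in the chromosome 9 cluster (Mmp13, Mmp12, Mmp1b, Mmp3, Mmp1a, Mmp10 and Mmp7), and in 4.46% of all 32851 promoters. TATAAA was found for 9 of the 31 genes, 7 of them in the cluster, and in 12.4% of all promoters. GGGCGG was found for 15 of the 31 genes, 0 of them in the cluster, and in 32.7% of all promoters. A match describes the letters in this window and not a site in use.

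The 150 bases before the RefSeq start are printed below 5′ to 3′, all from the + strand of chromosome 9, with TGAGTCA or TGACTCA and TATAAA in capitals. Mmp13, Mmp3 and Mmp10 hold both motifs, the second RefSeq start of Mmp12 holds the AP-1 motif without TATAAA while its first start (chr9:7344247-7344396 upstream, not printed) holds neither, and Mmp8 and Mmp27 hold neither.
Mmp13 (chr9:7272364-7272513, + strand): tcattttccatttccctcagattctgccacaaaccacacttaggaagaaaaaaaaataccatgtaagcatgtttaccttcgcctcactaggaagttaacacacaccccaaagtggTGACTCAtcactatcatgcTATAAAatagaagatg
Mmp12 (chr9:7347224-7347373, + strand): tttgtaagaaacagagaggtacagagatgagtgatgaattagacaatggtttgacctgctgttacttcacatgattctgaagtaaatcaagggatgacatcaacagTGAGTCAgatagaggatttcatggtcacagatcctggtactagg
Mmp3 (chr9:7445672-7445821, + strand): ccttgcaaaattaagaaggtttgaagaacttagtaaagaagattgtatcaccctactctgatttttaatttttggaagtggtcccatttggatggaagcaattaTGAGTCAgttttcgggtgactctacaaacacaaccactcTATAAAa
Mmp10 (chr9:7502192-7502341, + strand): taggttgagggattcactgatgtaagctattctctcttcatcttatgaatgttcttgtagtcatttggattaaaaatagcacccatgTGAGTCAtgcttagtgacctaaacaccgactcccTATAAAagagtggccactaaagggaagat
Mmp8 (chr9:7558279-7558428, + strand): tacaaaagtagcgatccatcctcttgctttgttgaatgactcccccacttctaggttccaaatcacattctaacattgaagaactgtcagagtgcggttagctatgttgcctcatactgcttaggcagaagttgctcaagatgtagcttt
Mmp27 (chr9:7571246-7571395, + strand): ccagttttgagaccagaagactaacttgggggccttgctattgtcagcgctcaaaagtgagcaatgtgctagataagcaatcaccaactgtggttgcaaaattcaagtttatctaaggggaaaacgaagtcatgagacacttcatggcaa
The AP-1 motif began 35 bases before the start in Mmp13, 44 in Mmp12, 46 in Mmp3 and 63 in Mmp10. Whether the motif bears on the levels of these genes was not tested.

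Mmp12, the macrophage elastase (chr9:7344381-7369499, + strand), had 79 counts (3.53 CPM) in IMQ+IDMF, 42 and 37 (1.5 and 1.8 CPM) in IMQ+VEH and 19 (0.749 CPM) in IMQ. IMQ+IDMF was above the other 3 libraries and IMQ below them. The ratio of IMQ+IDMF was 2.36 to IMQ+VEH replicate 1 (1.6 to 3.52), 1.96 to replicate 2 (1.31 to 2.98) and 4.72 to IMQ (2.83 to 8.25), so each counting interval lay above 1. In the model, which adds the spread between replicates, the log2 fold change of IMQ+IDMF against IMQ+VEH was 1.10 (SE 0.68, adjusted p = 1) and that of IMQ+VEH against IMQ was 1.13 (SE 0.77), and neither passed. The sum of the macrophage markers given above was lowest in IMQ+IDMF, where Mmp12 was highest, and the part of macrophages in Mmp12 was not tested. Exons of Mmp12 overlap those of Mmp1b.

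Among the stromelysins, which cut proteoglycans, fibronectin and other MMP precursors, Mmp3 (stromelysin 1) had 477 counts (21.3 CPM) in IMQ+IDMF, 863 and 701 (30.8 and 34.2 CPM) in IMQ+VEH and 503 (19.8 CPM) in IMQ. Both vehicle libraries were above the single libraries of the other groups. The log2 fold change was -0.61 (SE 0.30, adjusted p = 1) for IMQ+IDMF against IMQ+VEH and 0.71 (SE 0.31, adjusted p = 0.51) for IMQ+VEH against IMQ. Mmp10 (stromelysin 2) had 15 counts in IMQ+IDMF, 18 and 29 in IMQ+VEH and 14 in IMQ, all low and close but for IMQ+VEH replicate 2. Mmp11 (stromelysin 3), a fibroblast enzyme activated inside the cell by furin, had 111 counts (4.96 CPM) in IMQ+IDMF, 191 and 130 (6.81 and 6.34 CPM) in IMQ+VEH and 75 (2.96 CPM) in IMQ. Mmp11 was highest with vehicle and lowest with imiquimod only, with a log2 fold change of 1.15 (SE 0.52, adjusted p = 0.545) for IMQ+VEH against IMQ.

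**Figure D3:**
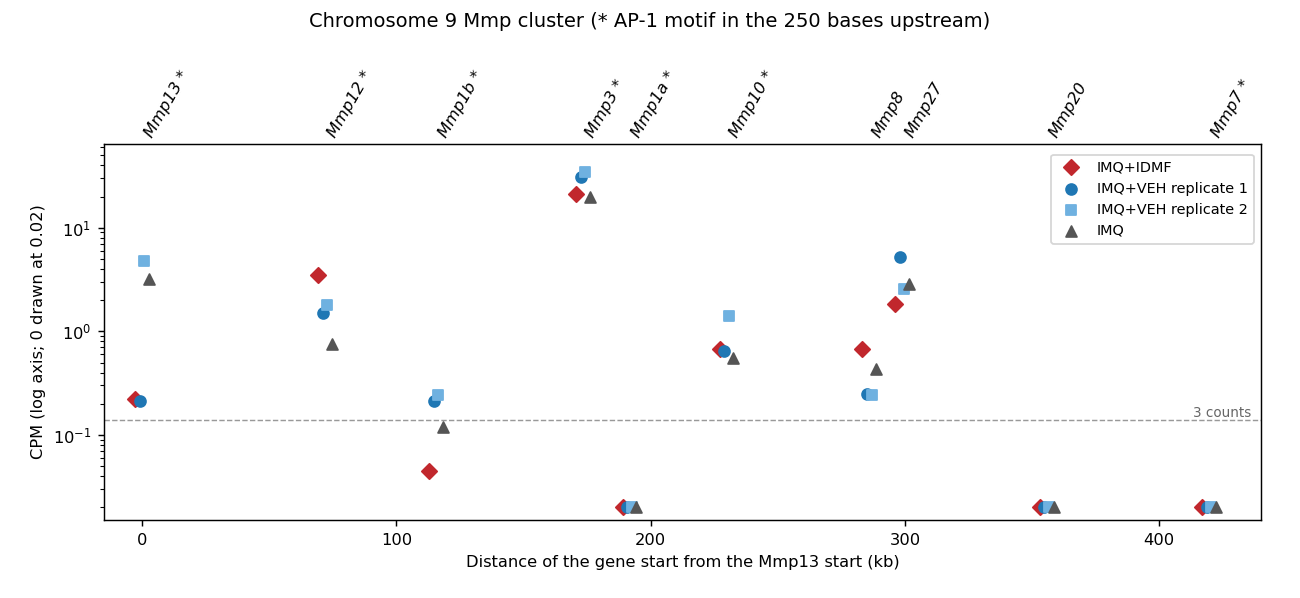
CPM (log axis) of the chromosome 9 Mmp genes in each library against their distance from the start of Mmp13. A star marks a gene with the AP-1 motif in the 250 bases before a RefSeq start, a value of 0 is drawn at 0.02, and the dashed line is about 3 counts. Mmp13 splits with IMQ+VEH replicate 2 and IMQ high and the other 2 libraries near the floor, whereas Mmp3 varies between 19.8 and 34.2 CPM.

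The gelatinases cut denatured collagen and basement membrane collagen. Mmp2 (chr8:92827291-92853420, + strand), made mainly by fibroblasts, had 3101 counts (139 CPM) in IMQ+IDMF, 6173 and 3837 (220 and 187 CPM) in IMQ+VEH and 2495 (98.3 CPM) in IMQ. The groups did not overlap: vehicle was highest, IMQ+IDMF between and IMQ lowest. The log2 fold change was -0.55 (SE 0.30, adjusted p = 1) for IMQ+IDMF against IMQ+VEH and 1.05 (SE 0.30, adjusted p = 0.219) for IMQ+VEH against IMQ. Mmp9, the gelatinase stored in neutrophils and also made by macrophages and keratinocytes, had 118 counts (5.28 CPM) in IMQ+IDMF, 197 and 201 (7.02 and 9.8 CPM) in IMQ+VEH and 195 (7.68 CPM) in IMQ. IMQ+IDMF was the lowest library, and IMQ fell between the vehicle libraries. Per transcript length, Mmp2 exceeded Mmp9 by a factor of 26.6 in IMQ+IDMF, 32.8 and 20.0 in IMQ+VEH and 13.4 in IMQ.

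Among the membrane-bound MMPs, Mmp14 (MT1-MMP, the cell-surface activator of pro-MMP2; chr14:54431612-54445364, + strand) had 1193 counts (53.3 CPM) in IMQ+IDMF, 1977 and 1316 (70.5 and 64.2 CPM) in IMQ+VEH and 1172 (46.2 CPM) in IMQ. Its order of groups was that of Mmp2, with smaller log2 fold changes of -0.34 (SE 0.27) for IMQ+IDMF against IMQ+VEH and 0.54 (SE 0.27, adjusted p = 0.613) for IMQ+VEH against IMQ. The FPKM ratio of Mmp2 to Mmp14 was 2.19 in IMQ+IDMF, 2.63 and 2.46 in IMQ+VEH and 1.8 in IMQ. Mmp23, which is released from the membrane by cleavage of its own anchor, had 136 counts (6.08 CPM) in IMQ+IDMF, 365 and 187 (13 and 9.12 CPM) in IMQ+VEH and 112 (4.41 CPM) in IMQ. Mmp23 thus had the order of Mmp2 as well, with log2 fold changes of -0.87 (SE 0.46, adjusted p = 1) for IMQ+IDMF against IMQ+VEH and 1.33 (SE 0.47, adjusted p = 0.364) for IMQ+VEH against IMQ.

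Mmp15 (MT2-MMP, found on epithelial cells) had 433 counts (19.4 CPM) in IMQ+IDMF, 564 and 319 (20.1 and 15.6 CPM) in IMQ+VEH and 323 (12.7 CPM) in IMQ, with IMQ+IDMF between the vehicle libraries. Mmp17 (MT4-MMP, held by a lipid anchor) had 37 counts in IMQ+IDMF, 77 and 22 in IMQ+VEH and 26 in IMQ, or 1.65 CPM in IMQ+IDMF, 2.74 and 1.07 CPM in IMQ+VEH and 1.02 CPM in IMQ, with the vehicle pair on either side of IMQ+IDMF. Mmp25 (MT6-MMP, leukolysin, a neutrophil membrane protease) had 7 counts (0.313 CPM) in IMQ+IDMF, 19 and 13 (0.677 and 0.634 CPM) in IMQ+VEH and 28 (1.1 CPM) in IMQ. For Mmp25 the groups did not overlap and IMQ+IDMF was lowest, but neither comparison passed (log2 fold change -1.06, SE 1.11, for IMQ+IDMF against IMQ+VEH and -0.74, SE 0.95, for IMQ+VEH against IMQ). The counting intervals include 1 for IMQ+IDMF against replicate 1 (0.164 to 1.15) and replicate 2 (0.167 to 1.33). They also include 1 for these replicates against IMQ (0.324 to 1.14 and 0.273 to 1.15), but not for IMQ+IDMF against IMQ (0.105 to 0.665).

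The remaining secreted MMPs differed in order. Mmp19, an MMP of the epidermis and of vessels, had 124 counts (5.55 CPM) in IMQ+IDMF, 371 and 112 (13.2 and 5.46 CPM) in IMQ+VEH and 80 (3.15 CPM) in IMQ, with IMQ lowest and the vehicle pair apart. Mmp27 had 41 counts (1.83 CPM) in IMQ+IDMF, 146 and 53 (5.2 and 2.59 CPM) in IMQ+VEH and 73 (2.88 CPM) in IMQ, and IMQ+IDMF was lowest. Mmp28 (epilysin, a keratinocyte enzyme) had 269 counts (12 CPM) in IMQ+IDMF, 333 and 172 (11.9 and 8.39 CPM) in IMQ+VEH and 202 (7.96 CPM) in IMQ. For Mmp28, IMQ+IDMF and the higher vehicle library were alike and IMQ was lowest.

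The procollagen N-propeptidases, which remove the amino-terminal propeptide from fibrillar procollagens, held the clearest value among the ADAMTS genes. Adamts2 (chr11:50602084-50807573, + strand), whose loss in humans and cattle gives fragile skin, had 846 counts (37.8 CPM) in IMQ+IDMF, 2328 and 1432 (83.0 and 69.8 CPM) in IMQ+VEH and 588 (23.2 CPM) in IMQ. Both vehicle libraries were above IMQ+IDMF, and IMQ+IDMF was above IMQ. In IMQ+VEH against IMQ, Adamts2 rose by a log2 fold change of 1.72 (SE 0.29, adjusted p = 0.0189; higher in 2 of 2 vehicle libraries), with a vehicle mean of 76.4 ± 9.29 CPM (SD, n = 2). This call was lost (log2 fold change 1.46, adjusted p = 0.241) when the IMQ+IDMF and IMQ+VEH libraries were joined as 1 group. In IMQ+IDMF against IMQ+VEH its log2 fold change was -1.01 (SE 0.28, unadjusted p = 0.00353, adjusted p = 1), the lowest unadjusted p among the members in that comparison.

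Adamts14, the close relative with the same substrate class, had 205 counts (9.17 CPM) in IMQ+IDMF, 274 and 254 (9.77 and 12.4 CPM) in IMQ+VEH and 269 (10.6 CPM) in IMQ, a narrow range in which IMQ fell between the vehicle libraries. The FPKM ratio of Adamts2 to Adamts14 was 2.98 in IMQ+IDMF, 6.08 and 4.02 in IMQ+VEH and 1.56 in IMQ. Adamts3, the third enzyme of the group, was not kept, with 7 counts in IMQ+IDMF, 6 and 3 in IMQ+VEH and 3 in IMQ. Col1a1, the gene of the type I procollagen chain trimmed by these enzymes, had 9139 counts (409 CPM) in IMQ+IDMF, 32253 and 12140 (1150 and 592 CPM) in IMQ+VEH and 4497 (177 CPM) in IMQ. Col1a1 thus had the order of Adamts2, without passing in either comparison (adjusted p = 1 and 0.081, edgeR). Col1a2 had this order as well, with 603 CPM in IMQ+IDMF, 1710 and 979 CPM in IMQ+VEH and 364 CPM in IMQ. Col3a1 did not, with 677 CPM in IMQ+IDMF, 2430 and 1090 CPM in IMQ+VEH and 713 CPM in IMQ.

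Adamts1 and Adamts5, proteases of versican and aggrecan, are neighbours on chromosome 16. Adamts1 (chr16:85793827-85803113, - strand) had 916 counts (41.0 CPM) in IMQ+IDMF, 1301 and 543 (46.4 and 26.5 CPM) in IMQ+VEH and 2083 (82.1 CPM) in IMQ. IMQ was above the 3 lotion libraries, against the direction of most MMPs, and IMQ+IDMF lay between the vehicle libraries. The log2 fold change of IMQ+VEH against IMQ was -1.17 (SE 0.32, adjusted p = 0.175). Adamts5 had 511 counts (22.9 CPM) in IMQ+IDMF, 1410 and 467 (50.3 and 22.8 CPM) in IMQ+VEH and 1174 (46.3 CPM) in IMQ. One vehicle library was level with IMQ+IDMF and the other was near IMQ, so Adamts5 gave no separation of the groups.

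The other proteoglycan-cutting members were lower and varied between the vehicle libraries. Adamts4 (aggrecanase 1) had 8 counts in IMQ+IDMF, 79 and 11 in IMQ+VEH and 43 in IMQ. IMQ+IDMF was the lowest library, at 0.127 times IMQ+VEH replicate 1 (0.053 to 0.263) but 0.667 times replicate 2 (0.233 to 1.82). Adamts9, a widely expressed versican-cutting protease, had 192 counts (8.59 CPM) in IMQ+IDMF, 344 and 87 (12.3 and 4.24 CPM) in IMQ+VEH and 174 (6.86 CPM) in IMQ, with the vehicle pair at both ends. Adamts20, a versican protease needed for pigment cell spread in mouse skin, had 61 counts (2.73 CPM) in IMQ+IDMF, 57 and 12 (2.03 and 0.585 CPM) in IMQ+VEH and 23 (0.906 CPM) in IMQ. IMQ+IDMF was highest for Adamts20, at 4.66 times IMQ+VEH replicate 2 (2.48 to 9.51) and 1.34 times replicate 1 (0.92 to 1.96). Adamts15 had 66 counts in IMQ+IDMF, 138 and 50 in IMQ+VEH and 77 in IMQ, and Adamts8 had 10 counts in IMQ+IDMF, 13 and 0 in IMQ+VEH and 6 in IMQ; neither separated the groups.

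Adamts13 (chr2:26973416-27009628, + strand), which cuts von Willebrand factor and is known chiefly as a product of liver stellate cells, had 5760 counts (258 CPM) in IMQ+IDMF, 5572 and 12243 (199 and 597 CPM) in IMQ+VEH and 8142 (321 CPM) in IMQ. The vehicle libraries were the lowest and the highest of the 4, at a ratio of replicate 2 to replicate 1 of 3.01 (counting interval 2.91 to 3.1). Neither comparison passed (log2 fold change -0.63, SE 0.53, for IMQ+IDMF against IMQ+VEH and 0.31, SE 0.52, for IMQ+VEH against IMQ). Adamts13 alone made up 26.1% of the members' counts in IMQ+IDMF, 14.8% and 41.5% in IMQ+VEH and 34.9% in IMQ. Without it the summed FPKM of the other 16 ADAMTS genes was 18.1 in IMQ+IDMF, 32.5 and 18.6 in IMQ+VEH and 24.3 in IMQ.

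Of the other ADAMTS genes, Adamts10, a protease tied to fibrillin microfibrils, had 169 counts (7.56 CPM) in IMQ+IDMF, 543 and 179 (19.4 and 8.73 CPM) in IMQ+VEH and 228 (8.98 CPM) in IMQ. Adamts12 had 61 counts (2.73 CPM) in IMQ+IDMF, 259 and 43 (9.23 and 2.1 CPM) in IMQ+VEH and 52 (2.05 CPM) in IMQ. In both genes IMQ+VEH replicate 1 stood above the other 3 libraries. Adamts7, a protease of cartilage oligomeric matrix protein, had 55 counts in IMQ+IDMF, 55 and 48 in IMQ+VEH and 30 in IMQ. Adamts17 had 48 counts in IMQ+IDMF, 39 and 33 in IMQ+VEH and 64 in IMQ. Adamts7 was lowest and Adamts17 highest in IMQ. The 3 remaining genes were near the floor: Adamts6 had 2 counts in IMQ+IDMF, 16 and 6 in IMQ+VEH and 18 in IMQ, a ratio of IMQ+IDMF to IMQ+VEH of 0.157 (0.0175 to 0.667) for replicate 1 and 0.306 (0.0302 to 1.71) for replicate 2. Adamts16 had 0 counts in IMQ+IDMF, 17 and 1 in IMQ+VEH and 6 in IMQ. Adamts18 had 4 counts in IMQ+IDMF, 11 and 14 in IMQ+VEH and 17 in IMQ, and all 3 were lowest in IMQ+IDMF.

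**Figure D4:**
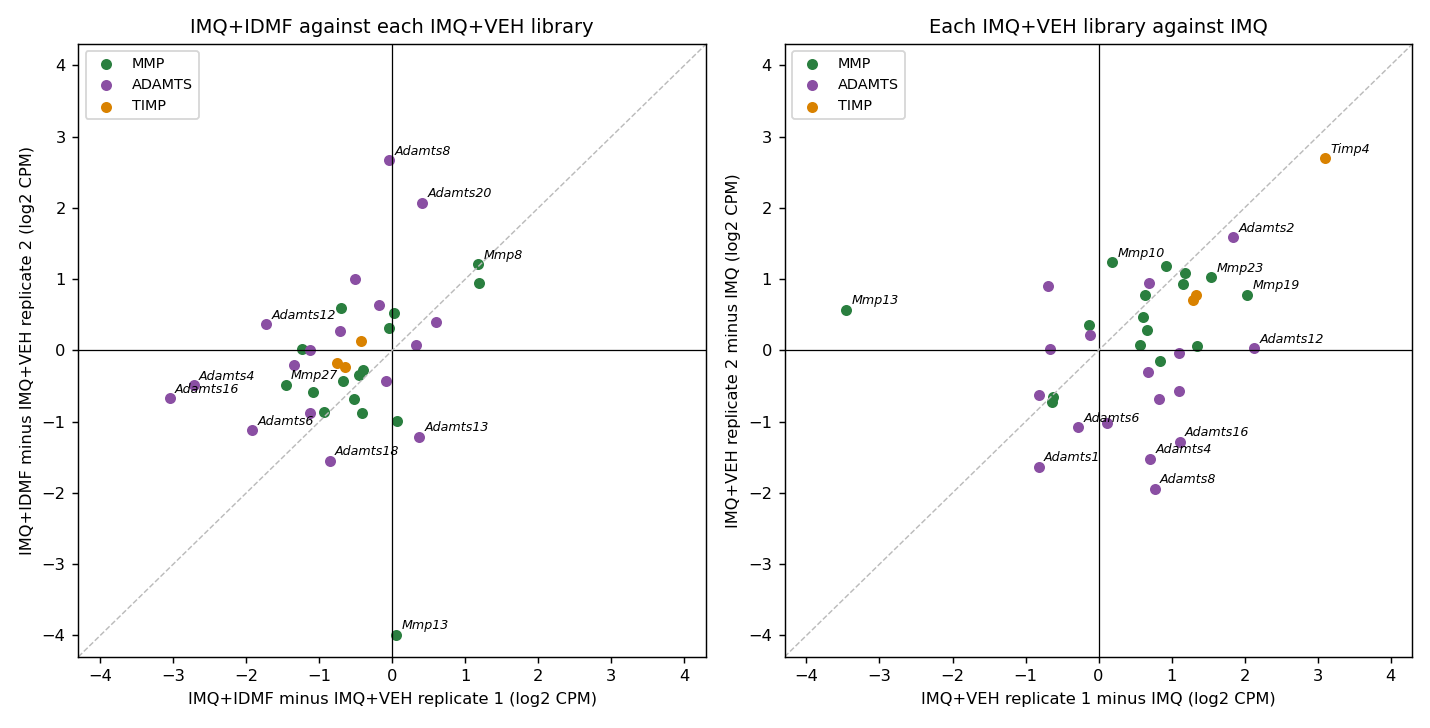
Log2 CPM differences of the 36 genes taken against each vehicle library, IMQ+IDMF minus IMQ+VEH replicate 1 against IMQ+IDMF minus replicate 2 (left) and each IMQ+VEH replicate minus IMQ (right). The axes of each panel share a library, so a slope between them is built in. Genes at upper right are positive against both vehicle libraries on the left (6 genes) or in both of them on the right (17 genes), and genes at lower left are negative (17 and 5 genes).

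The vehicle libraries were also compared with each other, on the log2 CPM scale with a prior count of 2. Replicate 2 was at least 2-fold below replicate 1 for 10 members, 8 of them ADAMTS genes (Adamts4, Adamts5, Adamts8, Adamts9, Adamts10, Adamts12, Adamts16 and Adamts20) with Mmp17 and Mmp19, where 8.08% of all genes were. Adamts15 and Mmp27 missed that line on this scale, with CPM ratios of 0.496 and 0.497 before the prior count. Replicate 2 was at least 2-fold above for 3 (Mmp10, Mmp13 and Adamts13), where 1.92% of all genes were. The 12 fibroblast markers also summed to less in replicate 2 (1150 CPM) than in replicate 1 (1920 CPM), with 6 of the 12 and 6 of 8 smooth muscle markers at least 2-fold lower, and the part of this in the pair's differences was not tested.

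All 3 kept inhibitors lay above IMQ in all 3 lotion libraries, as did the 3 stromelysins and 28.9% of all genes. For Mmp10 the ratio to IMQ was 1.22 in IMQ+IDMF (0.547 to 2.72) and 1.16 in IMQ+VEH replicate 1 (0.547 to 2.53). For Mmp3 in IMQ+IDMF it was 1.08 (0.948 to 1.22), so these counting intervals include 1. Timp4 (chr6:115241892-115252205, - strand), a TIMP of restricted expression found in heart, muscle and fat, had 323 counts (14.4 CPM) in IMQ+IDMF, 635 and 350 (22.6 and 17.1 CPM) in IMQ+VEH and 65 (2.56 CPM) in IMQ. IMQ was far below the other libraries, and IMQ+IDMF was a little below both vehicle libraries. Timp4 rose in IMQ+VEH against IMQ by a log2 fold change of 2.95 (SE 0.43, adjusted p = 0.00768; higher in 2 of 2 vehicle libraries), with a vehicle mean of 19.9 ± 3.94 CPM (SD, n = 2). In IMQ+IDMF against IMQ+VEH the log2 fold change was -0.46 (SE 0.37, adjusted p = 1). The summed adipocyte markers had the same split, 2610 CPM in IMQ+IDMF, 3510 and 2420 CPM in IMQ+VEH and 778 CPM in IMQ, and 8 skeletal muscle markers summed to 22500 CPM in IMQ+IDMF, 24500 and 16900 CPM in IMQ+VEH and 12900 CPM in IMQ; their part in Timp4 was not tested. Exons of Timp4 overlap Syn2 on the opposite strand by 90 of 5894 bases.

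Timp2 (chr11:118301069-118355740, - strand), which inhibits MMP2 and also bridges pro-MMP2 to MT1-MMP for activation, had 4457 counts (199 CPM) in IMQ+IDMF, 9454 and 4626 (337 and 226 CPM) in IMQ+VEH and 3494 (138 CPM) in IMQ. Timp3 (chr10:86300372-86349506, + strand), a matrix-bound TIMP that also blocks ADAMTS aggrecanases, had 2222 counts (99.4 CPM) in IMQ+IDMF, 3769 and 1861 (134 and 90.8 CPM) in IMQ+VEH and 1342 (52.9 CPM) in IMQ. Both were lowest in IMQ, and IMQ+IDMF lay below both vehicle libraries for Timp2 and between them for Timp3. The log2 fold change of IMQ+VEH against IMQ was 1.03 (SE 0.35, adjusted p = 0.346) for Timp2 and 1.09 (SE 0.31, adjusted p = 0.209) for Timp3. Exons of Timp3 overlap Syn3 on the opposite strand by 1733 of 8144 bases.

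Inhibitor and enzyme levels per length were set side by side within each library. The FPKM ratio of Timp2 to Mmp2 was 1.19 in IMQ+IDMF, 1.27 and 1.0 in IMQ+VEH and 1.16 in IMQ, a range within which the vehicle pair spanned the others. The ratio of Timp2 to Mmp14 was 2.62 in IMQ+IDMF, 3.35 and 2.46 in IMQ+VEH and 2.09 in IMQ. Timp3 to Adamts1 gave 2.54 in IMQ+IDMF, 3.03 and 3.58 in IMQ+VEH and 0.673 in IMQ, and Timp3 to Adamts5 gave 7.67 in IMQ+IDMF, 4.72 and 7.03 in IMQ+VEH and 2.02 in IMQ. In both of these ratios IMQ was the lowest library, and in it Adamts1 exceeded Timp3. Summed FPKM of the MMPs was 79.6 in IMQ+IDMF, 126 and 102 in IMQ+VEH and 60.1 in IMQ, and that of the 3 TIMPs was 67.0 in IMQ+IDMF, 114 and 71.5 in IMQ+VEH and 37.5 in IMQ.

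Other genes of the pathway were counted from fixed lists, and none of them passed the adjusted edgeR test in either comparison. Timp1, the inducible TIMP, had 52 counts (2.33 CPM) in IMQ+IDMF, 247 and 80 (8.81 and 3.9 CPM) in IMQ+VEH and 106 (4.18 CPM) in IMQ, so IMQ+IDMF was lowest (log2 fold change -1.45, SE 0.63, adjusted p = 1 against IMQ+VEH). Unlike the 3 TIMPs above, Timp1 was not lower in IMQ than in both vehicle libraries. Reck, a membrane-anchored inhibitor of MMPs, had 212 counts (9.48 CPM) in IMQ+IDMF, 388 and 141 (13.8 and 6.88 CPM) in IMQ+VEH and 115 (4.53 CPM) in IMQ, lowest in IMQ. Of 6 tested genes listed as other inhibitors, 3 were above IMQ in both vehicle libraries, namely Reck, Wfikkn2 and Serpinh1, and 1 was below. In IMQ+IDMF 2 of the 6, Timp1 and Serpinh1, were lower than in either vehicle library. The shares of all genes were 33.5%, 35.0% and 27.5% in that order. Serpinh1 is a collagen chaperone and not a known inhibitor of MMPs, so these counts do not describe inhibitors only.

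Of 13 tested activators of MMP precursors, 4 were above and 4 below IMQ in both IMQ+VEH libraries, near the shares of all genes, 33.5% and 35.0%. Furin, the convertase that activates the membrane-type MMPs, MMP11 and the ADAMTS proteases, had 153 CPM in IMQ+IDMF, 126 and 174 CPM in IMQ+VEH and 174 CPM in IMQ. Plau, the urokinase that starts plasmin formation, had 85.8 CPM in IMQ+IDMF, 113 and 101 CPM in IMQ+VEH and 150 CPM in IMQ, and its receptor Plaur had 2.41 CPM in IMQ+IDMF, 0.998 and 3.17 CPM in IMQ+VEH and 1.93 CPM in IMQ. Plau was highest in IMQ and lowest in IMQ+IDMF, whereas Furin and Plaur did not separate the groups. Of 7 ADAMTS-like genes, which encode relatives with no protease domain, 5 were above IMQ in both IMQ+VEH libraries, against 33.5% of all genes. Among them, Adamtsl4, a microfibril protein, had 634 counts (28.4 CPM) in IMQ+IDMF, 1063 and 512 (37.9 and 25.0 CPM) in IMQ+VEH and 258 (10.2 CPM) in IMQ, with a log2 fold change of 1.63 (SE 0.36, adjusted p = 0.0808) for IMQ+VEH against IMQ.

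Of 17 tested matrix substrates, 9 were above IMQ in both IMQ+VEH libraries and 1 was below, and 8 were below both IMQ+VEH libraries in IMQ+IDMF. The shares of all genes were 33.5%, 35.0% and 27.5%, against 52.9%, 5.88% and 47.1% of these substrates. Their summed level was 2830 CPM in IMQ+IDMF, 7460 and 3850 CPM in IMQ+VEH and 2300 CPM in IMQ. Of 16 tested inducers and AP-1 subunits, 3 were above and 6 below IMQ in both vehicle libraries (18.8% and 37.5%, against 33.5% and 35.0% of all genes), the 6 being Il1b, Tgfa, Fos, Fosl2, Jun and Junb. Fos had 15 CPM in IMQ+IDMF, 17.8 and 14.2 CPM in IMQ+VEH and 32.6 CPM in IMQ, without passing (adjusted p = 0.258). Of 9 ADAM sheddases, the membrane-bound relatives that release cell-surface proteins, 3 were above and 3 below IMQ in both vehicle libraries, and 7 were lower in IMQ+IDMF than in either of them. The first pair of counts, 33.3% each, is near the shares of all genes, 33.5% and 35.0%, and the last is 77.8%, against 27.5% of all genes.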

How the data were processed

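RNA from frozen skin was read with 50-cycle single-end sequencing, per the labels' protocols. For each of 4 libraries the authors deposited whole-number read counts per gene and a table of FPKM, fragments per kilobase scaled to library size. TopHat2, Cufflinks and HTSeq were used on GRCm38 (mm10), per the submitters' processing notes. Their versions, the annotation and the strand setting are not given in those sources. The counts of 20611 genes were fitted with edgeR 4.0.16 (R 4.3.3; TMM, filterByExpr, quasi-likelihood test, 3 group means, residual degrees of freedom 1, prior 11.2, threshold 0.05 after Benjamini-Hochberg adjustment over 15068 genes); all 36 members passed the filter. Log2 CPM differences used a prior count of 2. DESeq2 1.42.0, other scalings, other filters and other groupings were tried. The scripts were tested on simulated data. Deposited FPKM were used only as levels and ratios. Positions came from GENCODE on GRCm38 and upstream sequences from RefSeq (GRCm38.p6). Values are given for every MMP and TIMP kept, the highest ADAMTS genes of each role, members past the threshold and the 5 highest and 5 lowest by their smallest difference; other ADAMTS genes were added for completeness. Members and gene lists were chosen with earlier results of these data known. Library totals were 21991604 counts in IMQ+IDMF, 26639628 and 21167149 in IMQ+VEH, and 26337985 in IMQ, so members under about 50 counts rest on counting error as well as on the single vehicle pair.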

Additional observations from a re-analysis of the deposited data

How the results depend on the processing

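No paired analysis was possible because only the IMQ+VEH group has a second library. Timp4 passed in 7 of 7 alternatives for IMQ+VEH against IMQ (log2 fold change 2.82 to 3.03) and Adamts2 in 6 of 7 (1.46 to 1.8; adjusted p = 0.241 with IMQ+IDMF and IMQ+VEH as 1 group, where 1 member and 55 genes passed). Against 100 genes in the reported fit, DESeq2 called 195. With no filter on low counts 424 genes and 4 members passed, adding Adamts1 (adjusted p = 0.00316) and Timp3 (0.0202), and 16 genes but 0 members passed for IMQ+IDMF against IMQ+VEH. The member median of IMQ+VEH against IMQ ran from 0.15 to 0.70 as a log2 CPM difference when either vehicle library was left out.

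The direction turned for IMQ+IDMF against IMQ+VEH, with IMQ and IMQ+VEH as 1 group, in Adamts1 (-0.34), Mmp17 (0.03), Timp3 (0.1) and Timp4 (0.04). For IMQ+VEH against IMQ it turned with IMQ+IDMF and IMQ+VEH as 1 group in Adamts4 (-0.42), Adamts14 (-0.02), Adamts16 (-0.02) and Mmp9 (-0.06), and with DESeq2 in Adamts4 (-0.003) and Adamts8 (-0.01). Against a single vehicle library, the log2 CPM difference had the other sign than the fit for 13 members in IMQ+IDMF against IMQ+VEH (6 without replicate 1, 7 without replicate 2, among them Adamts12, Adamts13 and Mmp13) and for 14 in IMQ+VEH against IMQ (10 and 4). None of these genes had passed in that comparison, and the cause was not tested.

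An alternative chosen after seeing the data kept only the 22 members with a mean count of at least 50. Then 1 gene was above both vehicle libraries in IMQ+IDMF, 1 lay below IMQ with vehicle in either library and 1 in all 3 lotion libraries. Members below both vehicle libraries in IMQ+IDMF, or above IMQ in both vehicle libraries, fell less in number. IMQ+IDMF was at least 2-fold above IMQ for 1 and below it for 2, and IMQ+VEH replicate 2 at least 2-fold above replicate 1 for 1 and below it for 5. Fewer genes entered, and many genes behind these calls in the full list had lower mean counts and dropped out, Mmp8 and Adamts20 among them. The listed counts therefore fell as shares of the members too. Shares of all genes were not computed with this filter. Depth limits the lowest members, such as Mmp8, whose counting intervals against IMQ+VEH replicate 2 and IMQ include 1. Scaling by total counts moved the median of all genes by 0.127 between IMQ+VEH replicate 1 and IMQ and by -0.119 between the vehicle libraries.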
